A study of Mus musculus with 8 samples.

Results

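Interferon-stimulated genes are the genes that cells switch on when an interferon binds its receptor, and the 37 examined here are well-known members of that set in mice. They were chosen by name, as the rows of the deposited table whose symbol matched a listed member, and 37 of the 37 were found among 23386 genes. The kidneys came from mice of 49 weeks with a C57BL/6J label. The 4 wild-type (WT) animals and the 4 Ctrp1-/- (KO) animals were littermates from crosses of heterozygous parents, and 1 left kidney of each animal gave 1 library. Ctrp1 is C1qtnf1, which encodes a secreted relative of adiponectin. It was disrupted in 129S5/Sv embryonic stem cells by deleting coding sequence of exon 4, its last exon, with a portion of the 3′ UTR, and the mice were then backcrossed to C57BL/6J. The labels name no treatment, and they do not give the sex of each animal. They call the animals biological replicates.

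Type I interferons (alpha and beta) and type III interferons (lambda) act through the kinases JAK1 and TYK2 to form ISGF3, a complex with STAT2 and IRF9 that binds a promoter element called ISRE. Type II interferon (gamma) acts mainly through a different element, GAS. Both elements also serve low, unprovoked expression in healthy tissue, where tubule cells, endothelium and resident leukocytes can all express these genes. In whole-kidney RNA, fewer cells of a type and less RNA per cell cannot be told apart.

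Promoter windows from RefSeq (build GRCm38.p6, 250 bases before to 50 bases after a start) were present for 27 of the 37 genes. The ISRE core searched was GAAA, any 2 bases and GAAA again, on both strands, so that on the gene's strand it can also read TTTC, any 2 bases and TTTC. It was found for 16 of the 27 members, against 3.99% of the 27025 genes with a promoter window. The GAS letters TTCNNNGAA, where N is any base, read the same way on both strands and can share bases with the ISRE letters. They were found for 8 of 27 members, against 9.55%. Of the GBP and IRG GTPase genes with a window, 6 of 6 held the ISRE core and 3 of 6 held GAS. Among the remaining members the counts were 10 of 21 and 5 of 21. The windows shown here are of members from the IFIT, ISG15, GBP and IRG families, of tetherin (Bst2) and of the factor Irf1. They are 30 bases on the strand of the gene, 5′ to 3′, with the matched letters in capitals, and overlapping matches of 1 motif are joined.
Isg15, chr4:156200871-156200900, minus strand: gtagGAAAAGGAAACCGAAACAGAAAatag
Ifit1, chr19:34640794-34640823, plus strand: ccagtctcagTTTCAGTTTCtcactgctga
Ifit3, chr19:34583363-34583392, plus strand: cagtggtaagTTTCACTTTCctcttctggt
Bst2, chr8:71537580-71537609, minus strand: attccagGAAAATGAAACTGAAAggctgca
Gbp3, chr3:142559992-142560021, plus strand: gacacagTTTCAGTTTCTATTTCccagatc
Irgm1, chr11:48871428-48871457, minus strand: gtttcaaGAAATAGAAACCGAAActgattc
Igtp, chr11:58199512-58199541, plus strand: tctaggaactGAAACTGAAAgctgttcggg
Irgm2, chr11:58214903-58214932, plus strand: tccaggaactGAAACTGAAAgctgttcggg
The GAS letters are shown for 3 members in which they lie before the start.
Irf1 GAS, chr11:53769914-53769943, plus strand: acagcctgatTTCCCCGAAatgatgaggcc
Gbp7 GAS, chr3:142530220-142530249, plus strand: tccgttttctTTCCAGGAAaagcagaagct
Igtp GAS, chr11:58199501-58199530, plus strand: aactagccatTTCTAGGAActgaaactgaa
A match describes these letters only. No binding was measured, and a window with no match, such as that of Irf7 or Samd9l, says nothing about the factors.

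The libraries held 15027400 to 19256378 counted reads. C1qtnf1 measured 2.74 to 4.75 scaled FPKM (the deposited fragment counts per gene length and library size, divided by 1 scaling factor per library) in WT and 0.188 to 0.575 in KO. Its log2 fold change was -2.32 (SE 0.18, limma adjusted p = 0.000768), and the exact two-sided permutation test gave p = 0.0286, the smallest that 4 against 4 libraries allow. Kidney markers were abundant in all 8 libraries, with summed scaled FPKM of 1344 to 2072 for the thick ascending limb. The proximal tubule sum was 3307 to 3778 in WT and 3020 to 3289 in KO without overlap, most of it from Slc34a1. Slc34a1 and Slc5a2 were each lower in KO without overlap (limma adjusted p of 0.213 and 0.155), as were 4.28% of all tested genes. The log2 fold changes of the other markers on that list were -0.057 for Cubn, 0.041 for Lrp2 and 0.018 for Slc22a6. 2 libraries stood apart in a few marker genes, whose part in the members' values was not tested. KO replicate 3 had Aqp2, the water channel of the collecting duct, at 446 scaled FPKM against 108 to 189 elsewhere, and the macrophage lysozyme gene Lyz2 at 75.8 against 30.7 to 45.9. WT replicate 3 had the tubule injury marker Havcr1 at 4.73 against 0.482 to 1.89. Lcn2, another injury marker, was at 4.07 in KO replicate 3 and 3.40 in WT replicate 3, against 0.352 to 2.05 in the other libraries. Aqp2 and Lyz2 were on the marker lists, whereas Havcr1 and Lcn2 were looked at because earlier results on these data were known.

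All 37 genes had reads in all 8 libraries, so expression of the set was measurable in every kidney, with 13 reads or more for each gene and library. Their mean scaled FPKM lay between 0.424 and 32.5, with 4 genes above 10, 30 genes between 1 and 10 and 3 genes below 1. The 36 members that passed the filter (a mean of at least 0.5 over the 8 libraries, whatever the genotype) had a median of 4.43, against 6.92 for all 14022 tested genes. Mx1 was the member left out by the filter. FPKM is a level per length, so these levels can be set beside each other. In descending order of mean level the first 6 were Samd9l (32.5), Bst2 (22.1), Ifit3 (14.5), Irgm1 (10.9), Rsad2 (8.98) and Irf1 (8.83). Rsad2 and Irf1 overlapped across libraries and are neighbours that do not differ beyond their spread.

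None of the 36 tested members differed between KO and WT kidneys at a limma adjusted p under 0.05 (0 of 36, none higher and none lower), where 0.0499% of all tested genes did (0.0285% higher and 0.0214% lower). The smallest limma adjusted p among them was 0.217. At an unadjusted p under 0.05 there was 1 member, Samd9l, higher in KO. That is 2.78% of the members, against 15.4% of all tested genes (7.18% higher and 8.26% lower). The count depended on single libraries: it was 5 of 36 without KO replicate 3, against 14.0% of all tested genes there, and 4 of 36 without WT replicate 3, against 21.8%. It was 3 without KO replicate 1 (10.7% of all tested genes), 2 without WT replicate 1 (11.8%) and 2 without KO replicate 2 (13.8%). Limma's voom on the recovered reads, which kept all 37 members, likewise gave 0 calls and 1 member at an unadjusted p under 0.05. In 0 of 36 members did the WT and KO libraries separate without overlap, against 8.62% of all tested genes (4.34% with KO higher and 4.28% with KO lower). The median log2 fold change of the members was -0.022, with 13 above 0 and 23 below, and the median of all tested genes was -0.0012. The differences ran from -0.19 for Bst2 to 0.30 for Samd9l. The 95% intervals lay inside -1 to 1 on the log2 scale for 36 of 36 tested members and inside -0.5 to 0.5 for 27. A difference of 2-fold on that scale (log2 of scaled FPKM plus 0.5) is therefore outside the interval of each tested member. The bounds farthest from 0 were -0.77 for Gbp6 and 0.78 for Ifit3.

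**Figure D1:**
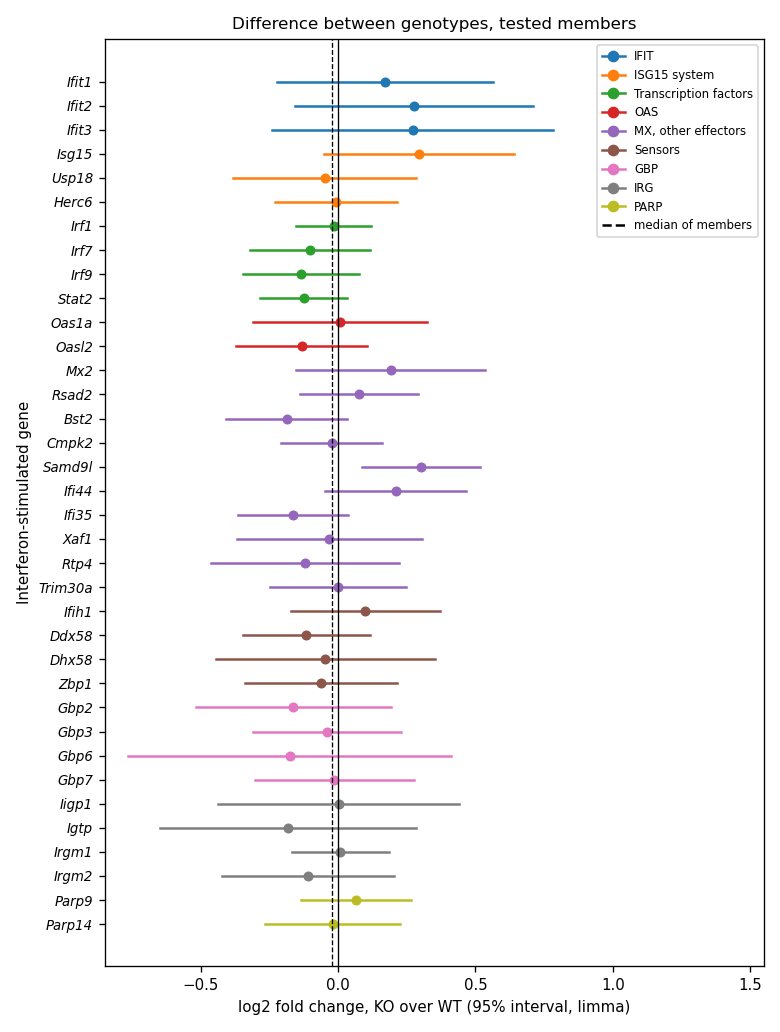
Difference between KO and WT as a log2 fold change (horizontal axis) for the 36 tested members (vertical axis), coloured by role; points are limma estimates, lines are 95% intervals and the dashed line is the median of the members (-0.022). The estimates lie between -0.19 and 0.30, and the interval of Samd9l is the one that does not reach 0.

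IFIT1 binds viral RNA that lacks the cap marks of the host and blocks its translation, and IFIT2 and IFIT3 are its relatives. Their genes lie in 1 stretch of chromosome 19 (34550694 to 34650009, plus strand, mm10). Ifit3 measured 8.37, 14.0, 17.6 and 12.4 scaled FPKM in WT replicates 1 to 4 and 14.4, 13.5, 22.9 and 12.6 in KO replicates 1 to 4. The highest library was KO replicate 3 and the lowest WT replicate 1, and the other 6 libraries of both genotypes lay between 12.4 and 17.6. The means were 13.1 ± 3.83 in WT and 15.9 ± 4.73 in KO (SD, n = 4), with a log2 fold change of 0.27 (95% interval -0.24 to 0.78, limma adjusted p = 0.589). Ifit1 measured 1.71, 2.33, 3.24 and 2.61 in WT and 2.72, 2.30, 3.82 and 2.51 in KO, and again KO replicate 3 was highest and WT replicate 1 lowest. Its log2 fold change was 0.17 (-0.22 to 0.57, limma adjusted p = 0.665). Ifit2 ran from 2.84 to 4.95 in WT and from 3.97 to 7.09 in KO, with the same highest and lowest libraries and a log2 fold change of 0.28 (adjusted p = 0.516, limma). Without either of those 2 libraries the estimates were smaller: that of Ifit3 was 0.087 without KO replicate 3 and 0.082 without WT replicate 1, and that of Ifit1 was 0.041 and 0.036.

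ISG15 is a ubiquitin-like protein that is joined to other proteins, HERC6 is the main ligase for that step in mice, and USP18 removes the tag and also dampens signalling at the type I receptor. Isg15 (chromosome 4, 156199424 to 156200818, minus strand) measured 2.75, 4.10, 5.28 and 3.85 scaled FPKM in WT and 4.32, 5.38, 5.33 and 4.64 in KO. WT replicate 1 was the lowest of the 8, while WT replicate 3 stood among the KO values. The log2 fold change was 0.29 (-0.052 to 0.64, limma adjusted p = 0.382). It was 0.15 without WT replicate 1 and 0.43 without WT replicate 3, where the limma adjusted p was 0.123. Usp18 averaged 2.91 ± 0.514 in WT and 2.81 ± 0.628 in KO, and Herc6 averaged 1.86 ± 0.245 and 1.84 ± 0.121.

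Among the transcription factors, Irf1 and Stat2 had the smallest pooled SD of all tested members (0.071 and 0.089 on the log2 scale). STAT2 and IRF9 are subunits of ISGF3, IRF7 amplifies type I interferon production once it has been induced, and IRF1 is induced mainly through GAS by interferon gamma. Stat2 measured 6.21, 5.96, 5.96 and 6.08 scaled FPKM in WT and 6.16, 5.17, 5.71 and 5.04 in KO, so that 3 of the 4 KO libraries lay below all WT libraries and KO replicate 1 lay among them. The fitted log2 difference was -0.13 (-0.28 to 0.032, limma adjusted p = 0.411). Irf9 averaged 6.32 ± 0.706 in WT and 5.70 ± 0.60 in KO, a log2 fold change of -0.14 (-0.35 to 0.075). Irf7 measured 5.94, 6.37, 7.19 and 6.51 in WT and 5.32, 5.83, 7.34 and 5.71 in KO, where KO replicate 3 was the highest of the 8 and the other 3 KO libraries were below all WT libraries. The fitted log2 difference was -0.10 (-0.32 to 0.12). Irf1 had the narrowest range of all, from 8.41 to 9.48 in WT and 8.50 to 9.39 in KO, so that its highest library was 1.13 times its lowest. The estimates of all 4 factors were below 0, and none passed the limma test (0 of 4). That of Irf1, at -0.017, changed sign when GC and length trends were removed (0.028).

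The MX, OAS and related proteins act directly against viruses. SAMD9L is an interferon-induced inhibitor of translation, tetherin (Bst2) holds budding virus at the cell surface, viperin (Rsad2) makes a chain-terminating nucleotide, and CMPK2, encoded beside Rsad2 on chromosome 12, supplies its substrate. Samd9l (chromosome 6, 3372257 to 3399571, minus strand) was the most abundant member and had the smallest p. It measured 26.0, 26.0, 32.4 and 31.8 scaled FPKM in WT and 40.7, 32.3, 36.6 and 33.9 in KO. KO replicate 2, at 32.3, lay just under WT replicate 3, at 32.4, and the other 3 KO libraries were above all WT libraries. The means were 29.1 ± 3.53 and 35.9 ± 3.69 (SD, n = 4), with a log2 fold change of 0.30 (SE 0.097, 95% interval 0.087 to 0.52, limma adjusted p = 0.217), which did not pass. Over the alternatives its limma adjusted p ran from 0.0995 (without WT replicate 3) to 0.436 (without WT replicate 2), and the estimate was 0.19 when trends with GC content and length were removed from each library. Samd9l had a GC content of 38.8%, and the median was 47.1% for the tested members and 49.9% for all tested genes. GC content and length were removed together, and their separate parts were not tested.

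Bst2 stood on the opposite side. It measured 20.1, 24.8, 25.1 and 24.3 scaled FPKM in WT and 18.9, 18.4, 24.1 and 21.4 in KO, so WT replicate 1 fell among the KO values. The log2 fold change was -0.19 (-0.41 to 0.033, limma adjusted p = 0.382). Rsad2 measured 8.31, 8.32, 10.3 and 8.04 in WT and 9.31, 7.88, 10.2 and 9.49 in KO, and the 2 highest libraries were replicate 3 of each genotype. Its log2 fold change was 0.075 (-0.14 to 0.29) and 0.0029 with GC and length trends removed. The estimates of the other members in these families ran from -0.16 for Ifi35 to 0.21 for Ifi44, with limma adjusted p of 0.395 and 0.403. Ifi44 averaged 3.04 ± 0.509 and 3.58 ± 0.404, and Ifi35 averaged 6.04 ± 0.594 and 5.34 ± 0.550. Cmpk2 (-0.024), Xaf1 (-0.032), Rtp4 (-0.12), Trim30a (-0.00090), Oasl2 (-0.13) and Oas1a (0.0060) lay between them, as did Mx2 (0.19). Oas1a encodes an enzyme that makes the 2-5A signal for RNase L, and Oasl2 encodes its relative.

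The Mx genes were the scarcest members. Mx1, whose protein blocks influenza virus and which is defective in many laboratory strains, C57BL/6 included, measured 0.502, 0.416, 0.571 and 0.440 scaled FPKM in WT and 0.261, 0.326, 0.443 and 0.429 in KO, from 192 reads over the 8 libraries. It was not tested, and its groups overlapped. Mx2 averaged 0.564 ± 0.187 in WT and 0.703 ± 0.0994 in KO, from 210 reads. Samd9l, by contrast, had 23160 reads, so the depth behind the members differed widely.

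**Figure D2:**
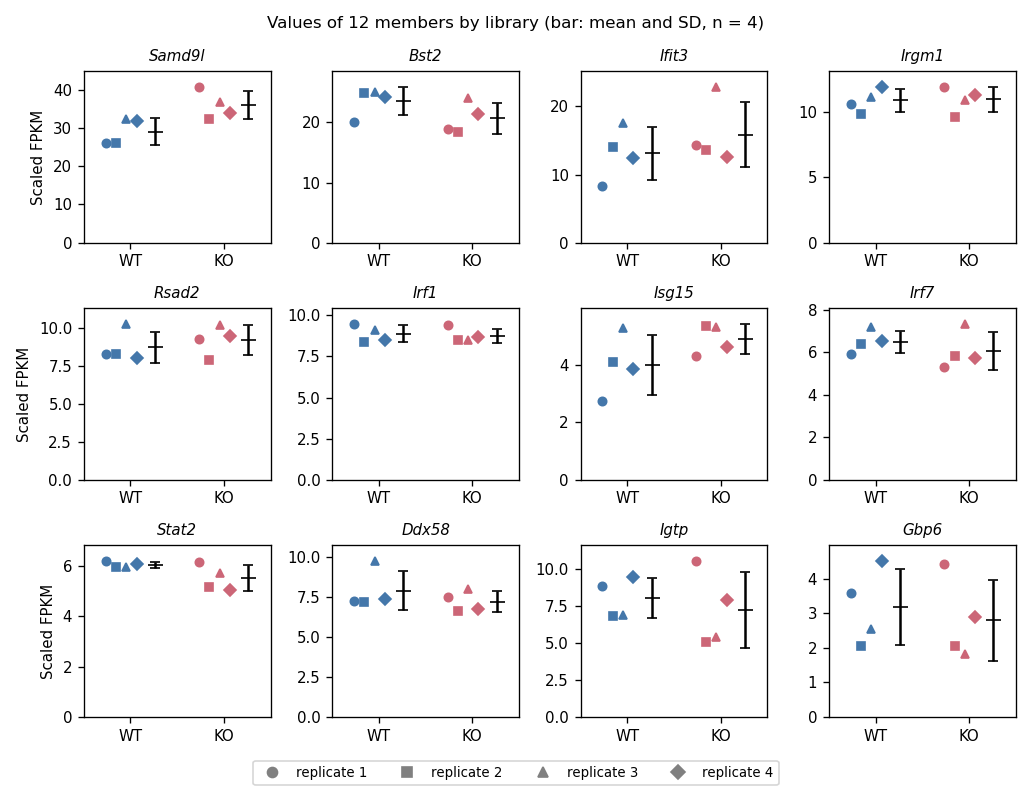
Scaled FPKM (vertical axes, linear, from 0) of 12 members in each WT and KO kidney library; the marker shape gives the replicate and the black bar beside the points is the mean ± SD (n = 4). WT and KO values overlap in all 12, and replicate 3 of both genotypes (triangles) stands highest or near it for Ifit3, Rsad2, Irf7 and Ddx58 but not for Igtp or Gbp6.

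RIG-I (Ddx58) and MDA5 (Ifih1) detect viral RNA in the cytosol, LGP2 (Dhx58) modulates both, and ZBP1 detects nucleic acid in the Z form and can trigger cell death. Ddx58 (chromosome 4, 40203773 to 40239828, minus strand) was the most abundant of these sensors and measured 7.26, 7.20, 9.77 and 7.41 scaled FPKM in WT and 7.50, 6.61, 8.0 and 6.78 in KO. WT replicate 3 stood above the other 7 libraries. Its log2 fold change was -0.12 (-0.35 to 0.12, limma adjusted p = 0.614), and -0.016 without WT replicate 3. Ifih1 averaged 2.83 ± 0.532 in WT and 3.04 ± 0.281 in KO. Dhx58 averaged 1.12 ± 0.359 and 1.06 ± 0.278, and Zbp1 averaged 0.713 ± 0.0435 and 0.668 ± 0.141. PARP9 and PARP14 are ADP-ribosyltransferase family proteins that tune interferon signalling. Parp9 averaged 5.13 ± 0.652 and 5.37 ± 0.333, and Parp14 averaged 3.18 ± 0.440 and 3.12 ± 0.383.

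The guanylate-binding proteins (GBP) and immunity-related GTPases (IRG) are induced strongly by interferon gamma and attack the vacuoles of intracellular parasites and bacteria. In them, as in most other members, the spread between kidneys of a genotype exceeded the difference between genotypes. Gbp6 (chromosome 5, 105215699 to 105293699, minus strand) was the most variable member, with 3.60, 2.06, 2.56 and 4.53 scaled FPKM in WT and 4.43, 2.06, 1.82 and 2.89 in KO. Its high libraries were WT replicate 4, KO replicate 1 and WT replicate 1, and each genotype held values near 2. The log2 fold change was -0.18 (-0.77 to 0.41, limma adjusted p = 0.776). Igtp measured 8.84, 6.80, 6.91 and 9.47 in WT and 10.5, 5.06, 5.39 and 7.90 in KO, with the highest and the lowest values both in KO. Its log2 fold change was -0.18 (-0.65 to 0.28, limma adjusted p = 0.699). Iigp1, which encodes an effector IRG that assembles on parasite vacuoles, measured 4.28, 3.30, 3.62 and 5.84 in WT and 5.87, 3.30, 3.38 and 4.58 in KO. Its means of 4.26 ± 1.13 and 4.28 ± 1.21 left a log2 fold change of 0.0013 (-0.44 to 0.44).

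Among the remaining GTPase genes the steadiest was Irgm1, whose highest library was 1.24 times its lowest. Irgm1, a regulator of the effector IRG proteins and of autophagy, measured 10.6, 9.86, 11.1 and 11.9 scaled FPKM in WT and 11.9, 9.62, 10.9 and 11.3 in KO, a log2 fold change of 0.0080 (-0.17 to 0.18). Gbp7 averaged 2.81 ± 0.371 in WT and 2.79 ± 0.530 in KO, a log2 fold change of -0.014 (-0.30 to 0.28). Gbp2 averaged 4.72 ± 0.400 and 4.26 ± 1.08, with KO replicate 2 lowest at 2.73. Gbp3 averaged 3.88 ± 0.667 and 3.73 ± 0.426, and Irgm2 averaged 7.61 ± 0.644 and 7.15 ± 1.73. The estimates of all 4 GBP genes were below 0 and 2 of the 4 IRG genes were above it, with none past the limma test (0 of 8). Those of Gbp7, Irgm1 and Iigp1 were close enough to 0 that leaving out single libraries changed their sign.

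Some of these values are less certain because of the gene models. The span of Igtp in the deposited table lies over 7974 bases of the span of Irgm2 on the same strand of chromosome 11, although RefSeq places the Irgm2 promoter downstream, as its window above shows. The span of Gbp5 covers those of Gbp3 and Gbp7, and Parp9 overlaps Dtx3l on the opposite strand by 682 bases. The IFIT, OAS, GBP and IRG families also hold close relatives, and the sources used here do not say how reads matching several of them were counted. 7 members (19.4% of those tested, against 8.62% of all tested genes) lie on chromosome 11, the chromosome of C1qtnf1. The nearest members are Ifi35 and Dhx58, at 17.0 and 17.7 Mb from it. Their log2 fold changes were -0.16 and -0.047, and neither passed. Of the other interferon pathway genes examined below, Lgals3bp (118392751 to 118402092) and Socs3 (117966079 to 117970047) lie closer to C1qtnf1 (118428203 to 118449963). The log2 fold changes of Lgals3bp and Socs3 were -0.24 and -0.21 (limma adjusted p of 0.369 and 0.525).

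Among themselves most members varied in 2 patterns over the libraries, each with high and low libraries in both genotypes. For the counts in this paragraph, the share of all tested genes above their own mean in each library was not computed. Each member was expressed as its deviation from its own mean over the 8 libraries, on the log2(scaled FPKM + 0.5) scale. Outside the GTPases, 26 of 28 tested members were above their own mean in WT replicate 3 and 23 of 28 in KO replicate 3, against 5 of 28 in WT replicate 1 and 7 of 28 in KO replicate 2. Their mean deviation was 0.18 and 0.19 in those 2 high libraries and -0.19 in WT replicate 1. The GTPases went another way: 8 of 8 were above their mean in WT replicate 4, 8 of 8 in KO replicate 4 and 7 of 8 in KO replicate 1, against 2 of 8 in KO replicate 3 and 0 of 8 in KO replicate 2. Their mean deviation was 0.27 in WT replicate 4, 0.29 in KO replicate 1, -0.20 in KO replicate 3 and -0.35 in KO replicate 2. In WT replicate 3 the GTPases were split, with 3 of 8 above their mean. The IFIT genes had the widest swing, from -0.57 in WT replicate 1 to 0.61 in KO replicate 3. Averaged by genotype, the deviations of the 28 members were -0.011 ± 0.15 in WT and 0.011 ± 0.12 in KO, and those of the 8 GTPases were 0.042 ± 0.16 and -0.042 ± 0.29 (SD over libraries, n = 4), differences smaller than the spread.

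**Figure D3:**
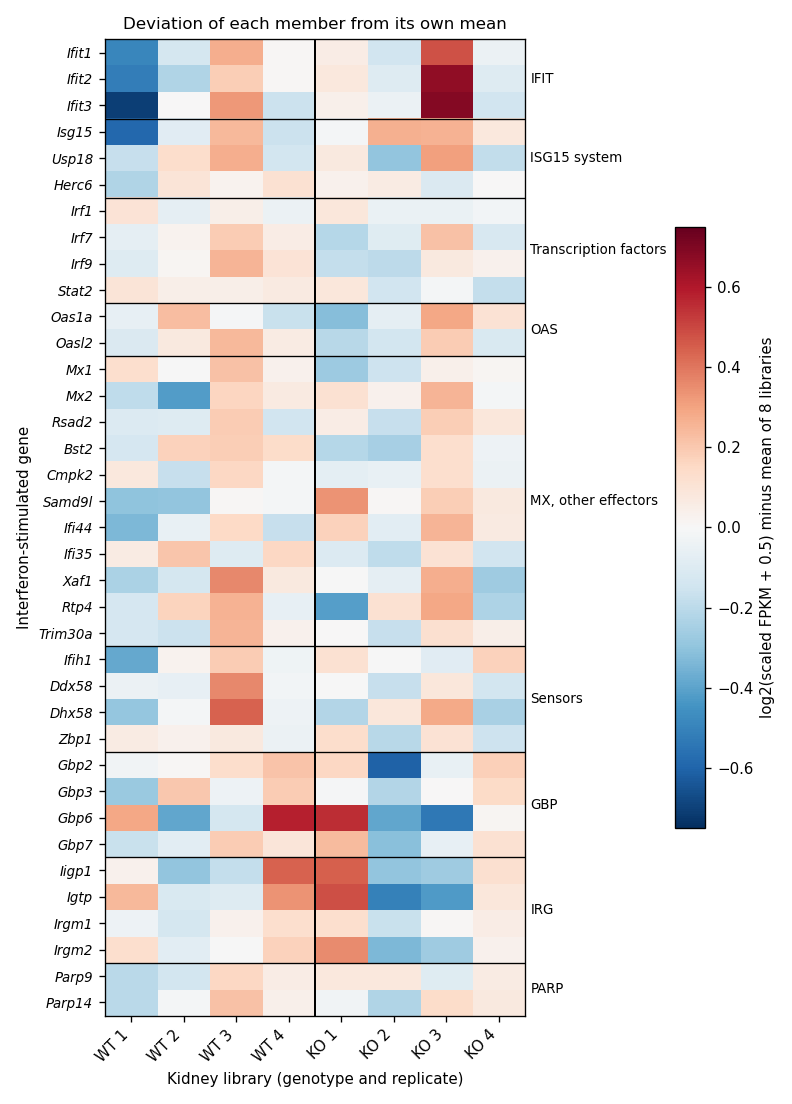
Deviation of each of the 37 members (rows, grouped by role) from its own mean over 8 libraries (columns, WT left and KO right of the line), in units of log2(scaled FPKM + 0.5); red is above and blue below the mean. The IFIT rows run from -0.57 on average in WT replicate 1 to 0.61 in KO replicate 3, whereas GBP and IRG rows are mostly red in WT replicate 4 and KO replicate 1 and blue in KO replicate 2.

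**Figure D4:**
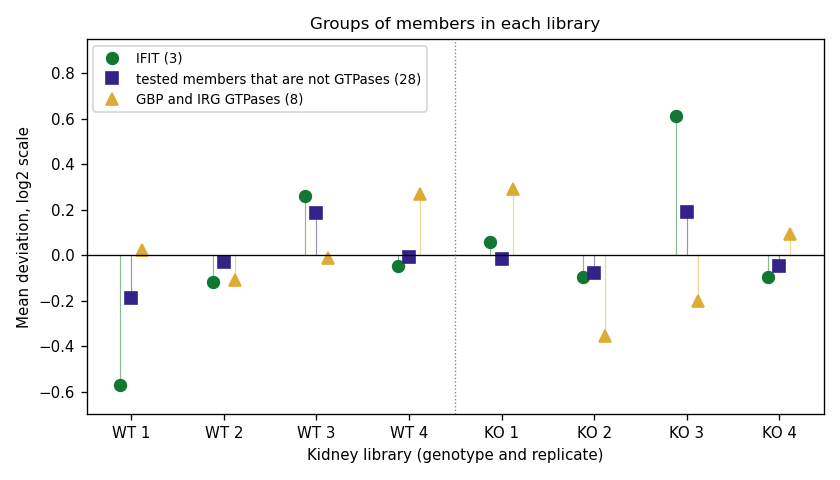
Mean deviation on the log2 scale (vertical axis) of 3 groups of members in each library (horizontal axis; WT left and KO right of the dotted line), with the number of members in brackets; the 28 include the 3 IFIT genes. The GTPases are highest in KO replicate 1 (0.29) and WT replicate 4 (0.27), libraries in which the other members lie near 0.

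Counted over members, WT replicate 3 held the highest value for 12 of 36 and KO replicate 3 for 9 of 36, where each was highest for 13.9% and 13.7% of all tested genes. KO replicate 2 held the lowest value for 15 of 36 and WT replicate 1 for 11 of 36, against 12.0% and 14.4% of all tested genes. The pooled SD within a genotype on the log2 scale had a median of 0.18 over the tested members, against 0.12 over all tested genes and 0.13 over the 11418 genes whose mean level lay within the members' range. This compares lists by description, since the members share their libraries and are not independent.

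Marker levels of other cell types are given beside these patterns. Macrophage and dendritic cell markers (11 of 12 in the table) summed to 121 to 146 scaled FPKM in WT and 113 to 177 in KO, with KO replicate 3 highest. Without Lyz2 the sums were 89.4 to 100.01 in WT and 73.8 to 101 in KO, so that Lyz2 made up most of the excess of KO replicate 3. Of the defining markers, C1qa was lowest in KO replicate 1 (18.4) and highest in WT replicate 3 (27.3). C1qb, C1qc and Cd68 were also lowest in KO replicate 1, at 14.9, 14.3 and 3.87. Csf1r was highest there, at 16.3, beside 16.2 in KO replicate 2. The remaining markers of the list were lowest in other libraries. Of these, Itgax lay at 1.67 to 1.99 in WT and 1.34 to 1.61 in KO without overlap (limma adjusted p = 0.305). Pan-leukocyte markers summed to 33.7 to 38.2 in WT and 28.9 to 38.6 in KO, with KO replicate 3 at the top and KO replicate 1 at the bottom. T and NK cell markers summed to 4.12 to 4.99 and 3.55 to 6.64, and B cell markers to 0.751 to 4.83 and 2.10 to 2.87. The plasmacytoid dendritic cell list, which shares Bst2 with the members, summed to 36.31 to 38.3 in WT and 30.02 to 36.26 in KO without overlap. Most of the sum came from Bst2, whose own groups overlapped. Irf8, also on that list, lay at 6.22 to 10.0 in WT and 5.02 to 6.13 in KO without overlap (limma adjusted p = 0.299). Such separation with KO lower was seen in 4.28% of all tested genes. The list's defining marker Siglech was at 0.10 to 0.22. Endothelial markers summed to 104 to 115 and 103 to 117. No marker of these lists passed the limma test (0 called), and 1 of them, the NK cell marker Klrb1c, was at 0 in a library. The part of these cells, or of the injury markers Havcr1 and Lcn2, in the members' values was not tested.

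Upstream of the members, few reads came from the ligands. Of 21 interferon genes on the list, 3 were in the table: Ifng had 11 reads over the 8 libraries, Ifnz had 5 and Ifnk had 2, and none was tested. The other 18 were not analysed here. The receptors were readily measured. Ifnar1, a chain of the type I receptor, averaged 12.4 ± 0.117 in WT and 12.7 ± 0.469 in KO, and Ifnar2, its partner, averaged 6.01 ± 0.333 and 5.56 ± 0.313. The gamma receptor chains averaged 14.8 ± 1.95 and 15.7 ± 1.92 for Ifngr1 and 7.24 ± 0.50 and 6.46 ± 0.431 for Ifngr2, and none of the 4 passed (limma adjusted p of 0.336 to 0.755). The signalling kinases Jak1 (33.1 ± 0.656 and 34.8 ± 0.799) and Tyk2 (6.40 ± 0.351 and 6.08 ± 0.540) and the factor Irf3, which starts type I interferon production (26.0 ± 2.92 and 24.5 ± 0.909), had limma adjusted p of 0.456 to 0.668. In Jak1 alone among these 7 genes did the libraries separate, by a narrow margin, against 8.62% of all tested genes (4.34% with KO higher). Jak1 lay at 32.3 to 33.65 in WT and 33.69 to 35.6 in KO, a log2 fold change of 0.069.

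The chains of the type III receptor gave the estimates of largest size on either side among the receptors, and neither passed. Il10rb, the chain shared with the interleukin-10 receptor, measured 11.6, 12.0, 12.7 and 11.1 scaled FPKM in WT and 9.27, 8.88, 10.9 and 9.93 in KO. All 4 KO libraries lay below all WT libraries, as they did for 4.28% of all tested genes. The log2 fold change of Il10rb was -0.27 (SE 0.073, limma adjusted p = 0.174). Ifnlr1, the chain specific to interferon lambda, measured 0.632, 0.781, 0.984 and 0.549 in WT and 1.22, 0.948, 1.28 and 0.941 in KO, a log2 fold change of 0.38 (SE 0.14, limma adjusted p = 0.265). KO replicates 2 and 4 lay just under WT replicate 3, so the groups overlapped.

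Over all pathway lists, 93 distinct genes were tested and 0 passed the limma test in either direction. At an unadjusted p under 0.05, 5 were higher and 5 lower in KO, again set against 15.4% of all tested genes. The 6 of smallest p were Il10rb, Tlr3, Ly6e, Tdrd7, Ifnlr1 and Daxx. Tlr3, the endosomal receptor for double-stranded RNA, measured 1.95, 1.94, 2.23 and 1.95 in WT and 2.74, 2.63, 2.56 and 2.27 in KO. Its groups did not overlap, as in 4.34% of all tested genes with KO higher. Its log2 fold change was 0.27 (SE 0.083, limma adjusted p = 0.205). Ly6e, an interferon-induced surface protein that limits coronavirus entry, was abundant at 138 ± 16.8 and 163 ± 4.52, and its groups overlapped (limma adjusted p = 0.217). Tdrd7 averaged 9.35 ± 0.105 and 10.3 ± 0.450, and Daxx, a histone chaperone, averaged 9.91 ± 0.448 and 8.83 ± 0.520. The 65 other interferon-induced genes tested had a median log2 fold change of -0.027, against -0.022 for the members.

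**Figure D5:**
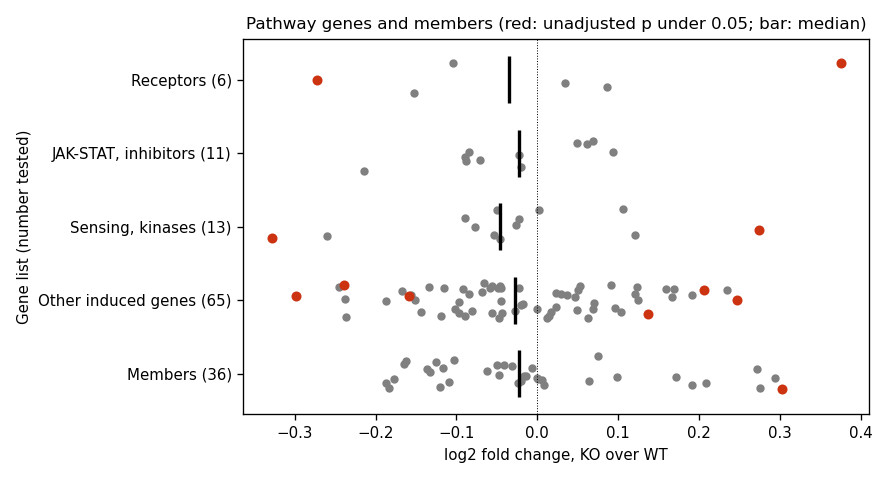
Estimated difference between KO and WT on the log2 scale (horizontal axis) of tested genes in 4 pathway lists and of the 36 tested members (vertical axis, number tested in brackets); red points had an unadjusted p under 0.05, grey points did not, the vertical scatter within a row carries no value, and the bar is the median. The medians lie between -0.046 and -0.022, and the red points fall on both sides of 0.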

How the data were processed

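Poly(A) RNA of 8 whole left kidneys was sequenced, 1 library per mouse, with groups from the genotype label. The deposited values are FPKM, per the file headers, and the authors gave them with symbol, mm10 position and gene length. The submitters' processing notes name CASAVA, STAR 2.5, HTSeq 0.6.1 and DESeq2 without roles. The sources used here do not say whether strand was used. FPKM times length gave whole reads for 100% of values (tolerance 0.01), so reads were recovered. FPKM was divided by a median-ratio factor per library (0.978 to 1.035), and genes with a mean of at least 0.5 were kept. Log2(scaled FPKM + 0.5) was fitted with limma 3.58.1 (trend) in R 4.3.3 on genotype alone, two-sided, with Benjamini-Hochberg adjustment over 14022 genes. Fold changes on this scale understate those of low genes. The labels give littermates but no litter and no shared numbers, so no block was used.

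The members, the lists and the rules were chosen with earlier results of these data known. Members named in full were those with an unadjusted p under 0.05, the 6 of highest level, the 3 of largest pooled SD and Irf7, Irf9, Stat2, Isg15, Ifit1, Ddx58, Irgm1, Gbp7 and Iigp1. Pathway genes named were 8 receptor and signalling genes, 1 of which is not reported here, and the 6 of smallest p. Alternatives were other pseudocounts, filters, scalings and limma settings, voom, a threshold of 0.10, removal of GC and length trends (natural splines with 4 degrees of freedom, GC content from GENCODE vM21), and leaving out each library. Leaving out replicate 3 of both genotypes together was added after seeing the data. The fit was tested on simulated data, with 50 genes changed by each known fold. At a limma adjusted p under 0.05 it recovered 8 of 50 at 1.25-fold and 33 of 50 at 1.5-fold. It recovered 40 of 50 at 2-fold and 46 of 50 at 4-fold, so differences of 1.25-fold were mostly missed.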

Additional observations from a re-analysis of the deposited data

Results flagged for a closer look

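In a group of 4 libraries, a value was marked when its gap to the nearest of the others took a share of the group's range above Dixon's 95% critical value. Of 74 groups (37 members in 2 genotypes) 5 were marked, where chance gives about 1 in 20, or 3.7. Rsad2 in WT replicate 3 was at 10.3 scaled FPKM against 8.04 to 8.32 in the other WT libraries, and Ddx58 in that library was at 9.77 against 7.20 to 7.41. Bst2 in WT replicate 1 was at 20.1 against 24.3 to 25.1. Cmpk2 in KO replicate 3 was at 7.28 against 6.28 to 6.42, and Parp9 in KO replicate 3 was at 4.87 against 5.48 to 5.56, the low side.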

How the results depend on the processing

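No member and no pathway gene passed limma's threshold under any of the 20 alternatives run (0 members and 0 pathway genes in each). The count of all genes called was 7, ranged from 5 to 16 when single libraries were left out, the 16 being without WT replicate 3, and was 5 to 10 under the other alternatives. The number of members at an unadjusted p under 0.05 was 1 in the main analysis and in each alternative that kept all libraries. It ranged from 1 to 5 when single libraries were left out (2 without WT replicate 1, 4 without WT replicate 3, 3 without KO replicate 1, 2 without KO replicate 2 and 5 without KO replicate 3) and was 4 without replicate 3 of both genotypes. The share of all tested genes in these was 11.8%, 21.8%, 10.7%, 13.8%, 14.0% and 20.2%. Samd9l was among them each time, and the cause of the other changes was not tested. The members' median ran from -0.078 to 0.018 when single libraries were left out and from -0.058 to -0.011 otherwise. C1qtnf1 kept its direction and call, at -3.48 to -1.79. Estimates near 0 changed sign: with GC and length trends removed, Irgm1 was -0.045, Irf1 0.028 and Iigp1 -0.083; Iigp1 was -0.010 with quantile normalization and -0.019 with voom; and without replicate 3 of both genotypes Irf1 was 0.0079 and Gbp7 0.065. With single libraries left out, Irgm1 ran from -0.036 to 0.065, Irf1 from -0.049 to 0.014, Gbp7 from -0.096 to 0.088 and Iigp1 from -0.15 to 0.15. The other 12 named members kept their direction in all alternatives. No paired analysis was possible because no label ties a WT animal to a particular KO animal. Depth limits Mx1 and Mx2 most, with 192 and 210 reads in all.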
